A study of Homo sapiens with 8 samples.

Results

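The 41 genes described here encode the machinery of mitosis: the CDK1 and cyclin B engine that starts it, the spindle checkpoint, the kinetochore and the APC/C pathway that ends it. They were taken from a list of named genes, and all 41 were measured, out of 19775 genes named on the arrays. Each gene was read from the probe set, a group of short probes for a transcript, that is paired with its symbol alone and has the highest mean over the 8 arrays. RNA came from A375, a human melanoma cell line with an activating BRAF mutation, and every condition has 1 array.

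Cells were transfected with siRNA against BRAF (siBRAF), siRNA against ATF4 (siATF4) or a nontargeting siRNA (siCont), so the control cells were transfected too. All grew in RPMI1640 with 10% serum. In the first set of 5 arrays, siBRAF cells were kept for 18 h in glutamine-free medium (siBRAF/GlnF) or normal medium (siBRAF/Normal), siATF4 cells in normal medium (siATF4/Normal), and siCont cells in glutamine-free (siCont/GlnF) or normal medium (siCont/Normal). In the second set of 3 arrays, siATF4 cells received 10 uM vemurafenib, a BRAF inhibitor, for 4 h (siATF4/VEM), and siCont cells received vemurafenib (siCont/VEM) or its solvent DMSO (siCont/DMSO). The time from transfection to harvest, the siRNA sequences and the number of cultures behind an array are not given in the sources used here.

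Most of these genes are silent early in the cell cycle and are transcribed in G2 and mitosis. In G0 and G1 the DREAM complex, which contains the MuvB core, E2F4 and a p130 or p107 pocket protein, holds them off. In G2 the same core switches to B-MYB and FOXM1 and turns them on. Their transcripts therefore follow how many cells of a culture are cycling, and in RNA from whole cultures fewer cells in G2 and mitosis and less RNA per cell cannot be told apart.

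Median intensities were 14.8 to 15.5 on the 5 medium arrays and 36.4 to 36.9 on the 3 drug arrays, so differences were taken only within a set. A difference is that of log2(intensity + 1) between 2 single arrays, with no replicate, no error between cultures and no p-value. Genes 2-fold or more apart were counted if the higher of both values was at least the median intensity of its array. ATF4 was 3.40-fold lower on the siATF4/Normal array than on siCont/Normal (intensity 534 against 1814) and 6.01-fold lower on siATF4/VEM than on siCont/VEM (757 against 4548). A probe set for BRAF alone was not analysed here, so knockdown of BRAF itself has no check. Of 8 melanocyte and melanoma markers measured, MITF, SOX10, S100B, S100A1 and TYR reached the array median on all 8 arrays, while MLANA and TYRP1 lay below it on all. Of these markers 3 were at least 2-fold higher on siBRAF/Normal than on siCont/Normal. Of 12 markers of other cell types, EPCAM, CDH1, PTPRC, CD14 and CDH5 lay below the median on all arrays and KRT5, KRT14, CD3E, PECAM1, COL1A1, DCN and PDGFRB reached it on all. Among those 12 only KRT14 was 2-fold apart in any pair, at 90.1 on siCont/GlnF against 182 on siCont/Normal.

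With siBRAF, mitotic genes were lower nearly throughout, in both media. In normal medium 40 of the 41 were at least 2-fold lower and 0 higher, where 7.61% of all 13346 genes that passed the filter were at least 2-fold lower and 7.16% higher. Their median difference was -2.69, a 6.44-fold lower level, against -0.01 for all genes. In glutamine-free medium, between 2 other arrays, 33 of the 41 were at least 2-fold lower and 0 higher, where 10.8% of all 13496 genes were lower and 12.8% higher, and the median was -1.64 against 0.02. The same 33 genes were at least 2-fold lower in both media. For 40 of the 41, all but CENPM, the difference was smaller in glutamine-free medium, where the siCont level was itself lower. This restates the difference in glutamine response given below, which lay below 0 for 45.7% of all 13708 genes.

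**Figure D1:**
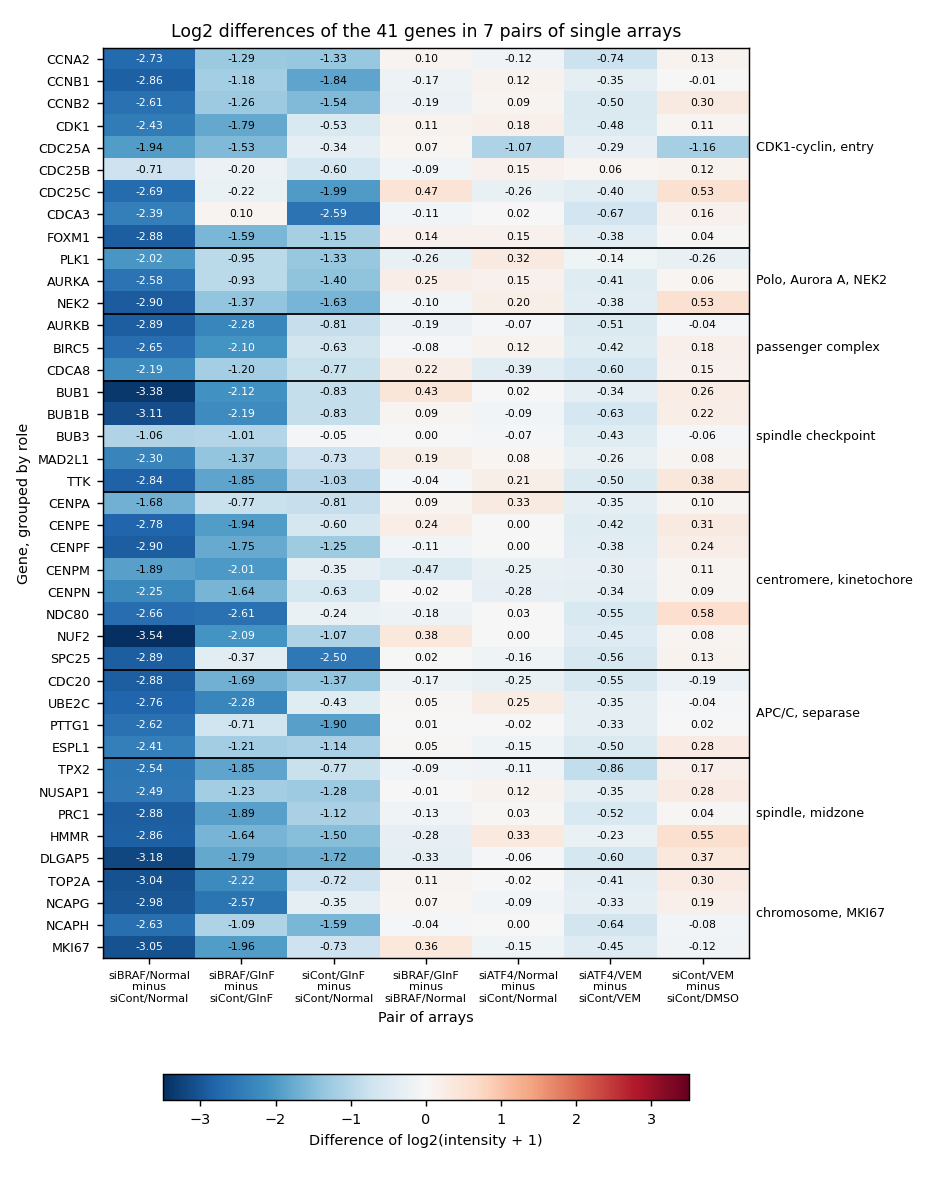
Differences of log2(intensity + 1) for the 41 genes (rows, grouped by role) in 7 pairs of single arrays (columns); blue is lower and red higher in the first-named array, and each cell prints its value. The siBRAF/Normal column is at -0.71 or below for every gene, and the siBRAF/GlnF minus siBRAF/Normal column lies between -0.47 and 0.47.

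Of the 9 genes of the CDK1 engine, 8 were at least 2-fold lower with siBRAF in normal medium and 6 in glutamine-free medium. CDK1 phosphorylates many proteins at mitotic entry once it binds cyclin A or cyclin B, and CDC25 phosphatases remove its inhibitory phosphates. FOXM1, the transcription factor that drives G2 and M genes, read 36.1 on siBRAF/Normal against 272 on siCont/Normal, and 39.8 on siBRAF/GlnF against 122 on siCont/GlnF, differences of -2.88 and -1.59. CDK1 itself was at -2.43 and -1.79, and the cyclin genes CCNA2 (-2.73 and -1.29), CCNB1 (-2.86 and -1.18) and CCNB2 (-2.61 and -1.26) were close to it. CDC25B read 505 on siBRAF/Normal against 829 on siCont/Normal, and 476 on siBRAF/GlnF against 545 on siCont/GlnF. Its differences of -0.71 and -0.20 made it the only member within 2-fold in normal medium, while CDC25A (-1.94 and -1.53) and CDC25C (-2.69 and -0.22) were lower there. CDC25C did not reach the median of the siBRAF/Normal array, and its other probe set that passed was at -2.87 and -1.81, so its value in glutamine-free medium depends on the probe set. For CDCA3, an adaptor that promotes mitotic entry through destruction of the CDK1 inhibitor WEE1, the normal medium difference was -2.39 and the other one 0.10.

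Mitotic kinases and the chromosomal passenger complex were lower as well. NEK2, a kinase that splits the centrosomes, read 68.8 on siBRAF/Normal against 521 on siCont/Normal, and 64.2 on siBRAF/GlnF against 168 on siCont/GlnF. PLK1, the polo kinase needed for bipolar spindles, read 20.4 on siBRAF/Normal against 86.2 on siCont/Normal, and 17.0 on siBRAF/GlnF against 33.7 on siCont/GlnF. PLK1 (-2.02 and -0.95) thus had smaller differences than NEK2 (-2.90 and -1.37), and AURKA, the centrosomal Aurora kinase, lay between them in normal medium (-2.58 and -0.93). In the passenger complex, which corrects wrong attachments at centromeres, the kinase AURKB read 45.6 on siBRAF/Normal against 344 on siCont/Normal, and 39.7 on siBRAF/GlnF against 196 on siCont/GlnF. CDCA8, the borealin subunit, read 64.8 on siBRAF/Normal against 300 on siCont/Normal, and 75.8 on siBRAF/GlnF against 175 on siCont/GlnF. All 3 passenger genes were at least 2-fold lower in both media, with BIRC5, the survivin subunit, at -2.65 and -2.10.

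The spindle checkpoint, which halts anaphase until every kinetochore is attached, held the gene with the second-lowest difference in normal medium, BUB1, and the one with the second-smallest, BUB3. BUB1, the kinase that seats the checkpoint at kinetochores, read 25.9 on siBRAF/Normal against 279 on siCont/Normal, and 35.3 on siBRAF/GlnF against 157 on siCont/GlnF. BUB1B, which encodes BUBR1, was at -3.11 and -2.19, the checkpoint kinase TTK at -2.84 and -1.85, and MAD2L1, which encodes the CDC20 inhibitor MAD2, at -2.30 and -1.37. BUB3, the adaptor that brings BUB1 and BUBR1 to kinetochores, read 887 on siBRAF/Normal against 1856 on siCont/Normal, and 889 on siBRAF/GlnF against 1795 on siCont/GlnF. The BUB3 differences of -1.06 and -1.01 came from the brightest of its 6 probe sets. The other 3 probe sets of BUB3 with intensities above 400 were at -0.53, -0.56 and -0.67 in normal medium, so BUB3 was lower on each of them but 2-fold lower only on the brightest.

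All 8 centromere and kinetochore genes were lower by 2-fold or more with siBRAF in normal medium, and 6 in glutamine-free medium. NUF2, a subunit of the NDC80 complex that grips microtubules, read 48.1 on siBRAF/Normal against 572 on siCont/Normal, and 62.8 on siBRAF/GlnF against 271 on siCont/GlnF. Its difference of -3.54 in normal medium was the lowest of all members, ahead of BUB1 at -3.38. NDC80 (-2.66 and -2.61) and SPC25 (-2.89 and -0.37) belong to the same complex, and as SPC25 did not reach the median of either siBRAF array, its differences depend on background. CENPA, the histone that marks centromeres, read 40.7 on siBRAF/Normal against 132 on siCont/Normal, and 43.4 on siBRAF/GlnF against 74.8 on siCont/GlnF. Among the other centromere genes CENPE, a motor that carries chromosomes to the spindle equator, was at -2.78 and -1.94, CENPF at -2.90 and -1.75, CENPM at -1.89 and -2.01 and CENPN at -2.25 and -1.64.

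All genes of mitotic exit, the spindle and the chromosomes were at least 2-fold lower with siBRAF in normal medium. UBE2C, the ubiquitin-conjugating enzyme of the APC/C, read 237 on siBRAF/Normal against 1615 on siCont/Normal, and 245 on siBRAF/GlnF against 1195 on siCont/GlnF. PTTG1, the securin that holds separase in check, read 374.6 on siBRAF/Normal against 2300 on siCont/Normal, and 377 on siBRAF/GlnF against 616 on siCont/GlnF. The siBRAF difference of UBE2C was thus similar in the 2 media (-2.76 and -2.28), while PTTG1 had -2.62 with glutamine and -0.71 without it. The APC/C activator CDC20 was at -2.88 and -1.69, and separase ESPL1 at -2.41 and -1.21. DLGAP5, a spindle assembly factor, read 46.4 on siBRAF/Normal against 429 on siCont/Normal, and 36.6 on siBRAF/GlnF against 130 on siCont/GlnF. NUSAP1, which bundles spindle microtubules, read 139 on siBRAF/Normal against 790 on siCont/Normal, and 138 on siBRAF/GlnF against 325 on siCont/GlnF. All 5 spindle genes were at least 2-fold lower in both media, with the AURKA activator TPX2 at -2.54 and -1.85, the midzone bundler PRC1 at -2.88 and -1.89 and HMMR, a spindle-binding protein, at -2.86 and -1.64. The condensin gene NCAPG read 66.2 on siBRAF/Normal against 530 on siCont/Normal, and 69.5 on siBRAF/GlnF against 416 on siCont/GlnF. Its partner NCAPH read 26.3 on siBRAF/Normal against 168 on siCont/Normal, and 25.6 on siBRAF/GlnF against 55.4 on siCont/GlnF. Both condensin genes were alike in normal medium (-2.98 for NCAPG and -2.63 for NCAPH) and further apart in glutamine-free medium (-2.57 and -1.09). Topoisomerase TOP2A was at -3.04 and -2.22, and the proliferation marker MKI67 at -3.05 and -1.96.

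**Figure D2:**
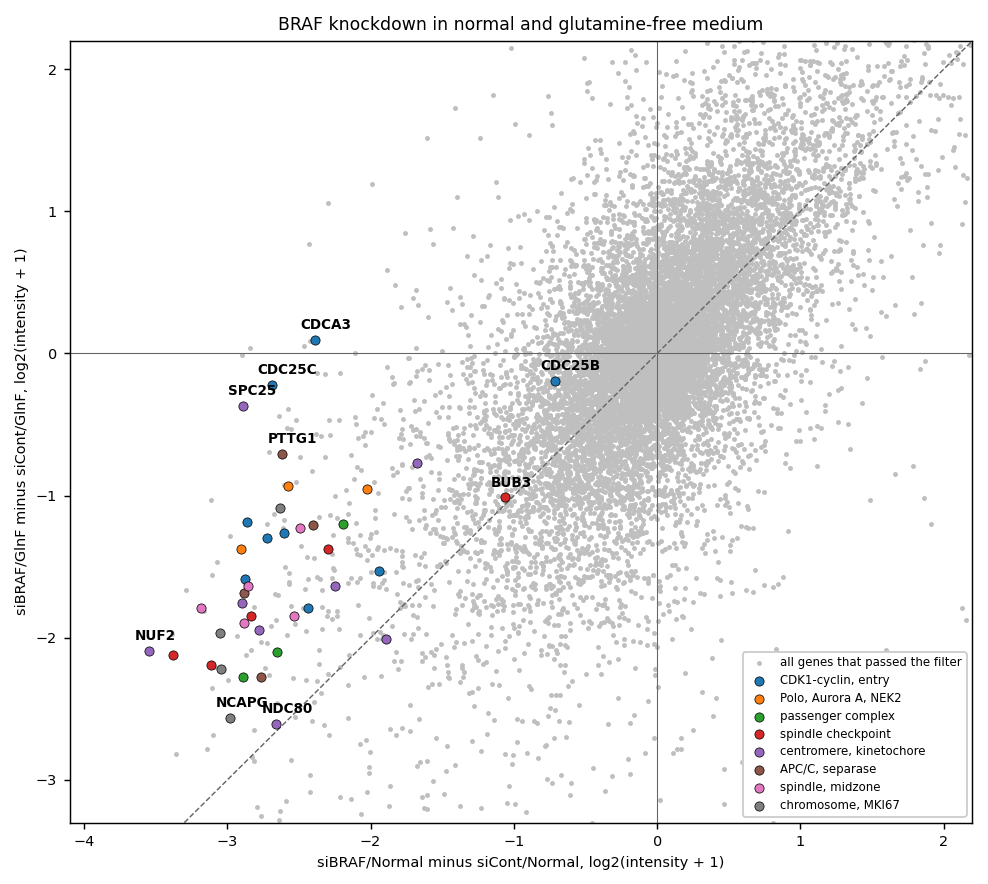
Difference of log2(intensity + 1) with siBRAF in normal medium (horizontal) and in glutamine-free medium (vertical), for the 41 genes (coloured by role) and all genes that passed the filter in both pairs (grey; those beyond the axes are not drawn); the dashed line marks equal differences. All 41 lie left of 0, CDC25B (-0.71) and BUB3 (-1.06) nearest to it, and all but CENPM lie above the dashed line.

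The additive model over the 8 arrays gave the only test. With siBRAF 36 of the 41 genes fell and 0 rose (limma, Benjamini-Hochberg adjusted over 14220 genes, threshold 0.05), where 10.9% of all genes fell and 12.2% rose. NCAPG fell by 2.82 (SE 0.18, limma adjusted p = 0.00491) and NDC80 by 2.71 (SE 0.19, limma adjusted p = 0.00539). CENPM, a subunit of the inner kinetochore, fell by 1.95 (SE 0.14, limma adjusted p = 0.00523). PTTG1 (limma adjusted p = 0.0599), SPC25 (0.109), CDC25B (0.111), CDC25C (0.127) and CDCA3 (0.207) did not pass. These 5 are the members nearest to 0 with siBRAF in glutamine-free medium. The model's 2 residual degrees of freedom are departures from additivity across media and settings, not error between cultures. Members called numbered 19 without the siCont/Normal array, where 493 of all 14220 genes fell, and 18 without siATF4/Normal, where 260 fell. They numbered 19 without siCont/VEM or without siATF4/VEM, where 266 and 263 of all genes fell, against 1546 in the full fit. These fits had 1 residual degree of freedom. With some other arrays left out more members were called, up to 41, and more of all genes fell.

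The 41 genes have 85 probe sets paired with their symbol alone, and 22 genes have more than 1. Of the 32 probe sets that were not used but passed the filter in normal medium, 28 were at least 2-fold lower on siBRAF/Normal, and 22 of 32 were at least 2-fold lower on siBRAF/GlnF against siCont/GlnF. They read 20 of the same genes on the same arrays, so they are not separate evidence. Among all genes 7.61% and 10.8% were at least 2-fold lower, and the share over all probe sets was not computed. The probe sets used for FOXM1, BUB3, CENPA and PTTG1 carry the suffix _x_at, which marks probes that can read near-identical transcripts, so their levels are uncertain in that respect.

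These genes differed together with siBRAF, and their promoters were searched for the letters of elements known from cell cycle genes. The CHR (cell cycle genes homology region), TTTGAA or more rarely TTCGAA, is where the MuvB core binds, and CCAAT boxes bind NF-Y. RefSeq windows (GRCh38.p14) of 250 bases before to 50 after a gene's start were given for 33 of the 41 genes. FOXM1, AURKA, BIRC5, BUB3, TTK, CENPM, UBE2C and TPX2 were not matched. TTTGAA or TTCGAA on either strand stood in a window of 25 of the 33 genes (27 of their 42 windows, 64.3%), against 16.4% of all 35116 windows. CCAAT on either strand stood in a window of 28 of the 33 genes (78.6% of windows), against 34.6% of all windows. Both stood in a window of 21 genes (54.8% of windows), against 6.38% of all. The E2F letters TTTCGCGC or TTTGGCGC, on either strand, stood in windows of CDC25A, CDK1 and NUSAP1 (9.52% of windows), against 1.15% of all. TTCGAA reads the same on both strands and was counted once, and matches of different elements that share bases were each counted. A match describes letters and shows no binding. The 25 genes with TTTGAA or TTCGAA and the rest of the 33 had like medians with siBRAF in normal medium, -2.69 and -2.75. Their medians were -1.64 and -1.33 with siBRAF in glutamine-free medium, and -1.07 and -1.46 for glutamine withdrawal in siCont cells. These differences were not tested.

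The 250 bases before the start are shown for 5 genes, with CHR and CCAAT letters in capitals (ATTGG is CCAAT on the other strand). CCNB2, with 4 CCAAT matches, and PLK1, with 1, show CCAAT upstream of a CHR close to the start, as does CDC25C. CDC25C and NCAPG hold a CHR and lie far apart in their response to glutamine on the probe sets used. CCNB1 holds CCAAT boxes but neither TTTGAA nor TTCGAA in this window, the only CHR letters searched.
CCNB2, chr15:59104896-59105145, plus strand: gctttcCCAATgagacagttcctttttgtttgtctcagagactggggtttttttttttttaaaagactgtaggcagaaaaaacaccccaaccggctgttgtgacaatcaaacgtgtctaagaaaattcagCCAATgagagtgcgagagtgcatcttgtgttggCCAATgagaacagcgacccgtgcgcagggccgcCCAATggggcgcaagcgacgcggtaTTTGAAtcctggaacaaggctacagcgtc
PLK1, chr16:23678639-23678888, plus strand: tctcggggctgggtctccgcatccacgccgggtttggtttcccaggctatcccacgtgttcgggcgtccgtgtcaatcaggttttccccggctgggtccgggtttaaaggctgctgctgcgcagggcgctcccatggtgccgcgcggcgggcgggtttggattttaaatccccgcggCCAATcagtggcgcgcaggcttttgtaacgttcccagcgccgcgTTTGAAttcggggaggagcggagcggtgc
CDC25C, chr5:138331805-138332054, minus strand: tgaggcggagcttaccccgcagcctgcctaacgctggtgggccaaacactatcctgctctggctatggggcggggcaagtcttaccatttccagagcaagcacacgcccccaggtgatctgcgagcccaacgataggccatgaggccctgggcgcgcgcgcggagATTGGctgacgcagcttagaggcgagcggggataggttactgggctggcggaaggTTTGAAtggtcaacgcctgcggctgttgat
NCAPG, chr4:17810729-17810978, plus strand: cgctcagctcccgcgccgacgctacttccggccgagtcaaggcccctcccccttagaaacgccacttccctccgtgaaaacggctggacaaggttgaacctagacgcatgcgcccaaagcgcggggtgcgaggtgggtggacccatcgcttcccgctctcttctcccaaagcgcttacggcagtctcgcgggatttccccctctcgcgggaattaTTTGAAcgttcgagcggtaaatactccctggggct
CCNB1, chr5:69166900-69167149, plus strand: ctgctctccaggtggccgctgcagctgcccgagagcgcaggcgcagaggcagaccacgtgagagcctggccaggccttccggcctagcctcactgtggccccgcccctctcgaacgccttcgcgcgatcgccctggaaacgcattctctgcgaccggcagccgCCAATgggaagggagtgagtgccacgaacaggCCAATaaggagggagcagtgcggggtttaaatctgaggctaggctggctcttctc

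In these stretches the CHR begins 29 bases before the start in CCNB2 and PLK1, 30 before it in CDC25C and 35 before it in NCAPG. Over all windows of the members only 15 of 37 CHR matches lay within 60 bases before the start, and 10 lay after it. CDC25C has 4 listed starts, and the window with the nearest upstream CHR is shown. With siBRAF in normal medium these genes were at -2.61 (CCNB2), -2.02 (PLK1), -2.69 (CDC25C), -2.98 (NCAPG) and -2.86 (CCNB1).

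Glutamine withdrawal in siCont cells went with lower levels of all 41 genes, but by very different amounts. Of the 41, 21 were at least 2-fold lower on siCont/GlnF than on siCont/Normal and 0 higher, where 7.22% of all 13355 genes were lower by 2-fold or more and 5.76% higher. The median was -1.03, against -0.05 for all genes, and members ran from -2.59 to -0.05. Genes of the entry engine (6 of 9), the polo, Aurora A and NEK2 kinases (3 of 3), mitotic exit (3 of 4) and the spindle (4 of 5) were often 2-fold lower. Passenger genes (0 of 3), checkpoint genes (1 of 5, TTK at -1.03), kinetochore genes (3 of 8) and the chromosome and marker genes (1 of 4, NCAPH at -1.59) had smaller shares, a difference between groups of genes that was not tested. It turns in part on the probe sets used: MKI67 was at -0.73 on the one used and at -1.46, -1.45 and -0.95 on the others, and BIRC5 at -0.63 on the one used and at -1.02 on another.

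CDCA3 read 76.3 on siCont/GlnF against 465 on siCont/Normal, SPC25 read 18.5 on siCont/GlnF against 110 on siCont/Normal, and CDC25C read 21.4 on siCont/GlnF against 88.4 on siCont/Normal, the 3 lowest differences at -2.59, -2.50 and -1.99. CDCA3 read 81.6 on siBRAF/GlnF and 87.9 on siBRAF/Normal, so its siCont/GlnF level lay close to both. For CDC25C the second probe set that passed was at -0.87, so the size for this gene depends on the probe set. PTTG1 (-1.90), CCNB1 (-1.84), DLGAP5 (-1.72), NEK2 (-1.63), NCAPH (-1.59), CCNB2 (-1.54) and HMMR (-1.50) followed.

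At the other end BUB3 read 1795 on siCont/GlnF against 1856 on siCont/Normal, NDC80 read 239 on siCont/GlnF against 282 on siCont/Normal, and CDC25A read 130 on siCont/GlnF against 164 on siCont/Normal. Their differences of -0.05, -0.24 and -0.34 were followed by NCAPG (-0.35), CENPM (-0.35) and UBE2C (-0.43). Of the other bright BUB3 probe sets 1 was at -0.14 and the others at 0.30 and 0.20, so for BUB3 the direction depends on the probe set. Within the NDC80 complex, SPC25 was at -2.50, NUF2 at -1.07 and NDC80 at -0.24, and in condensin NCAPH was at -1.59 and NCAPG at -0.35. CDK1 was at -0.53 while its partners CCNB1, CCNB2 and CCNA2 were at -1.84, -1.54 and -1.33. The other CDK1 probe sets were at -0.88, -0.94 and -0.78, so the size of that gap depends on the probe set. The 3' minus 5' log2 gap of the actin controls, which widens as RNA degrades, was 0.28 on siCont/GlnF against 0.16 on siCont/Normal, and its part in these differences was not tested.

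**Figure D3:**
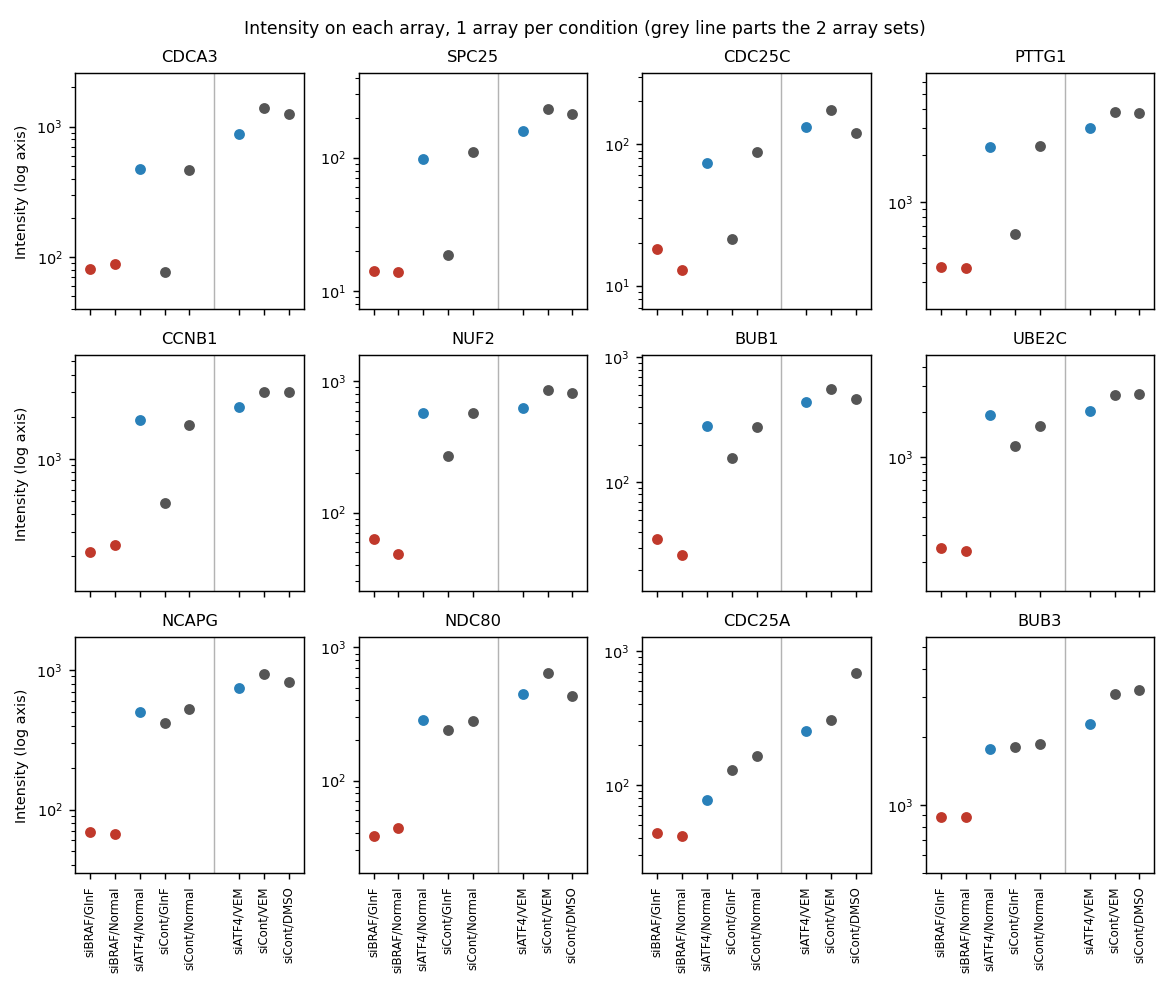
Intensity (log axis) of 12 of the genes on each of the 8 arrays, 1 point per array, with siBRAF in red, siATF4 in blue and siCont in grey; a grey line parts the medium arrays from the drug arrays, whose scales differ. For CDCA3, SPC25 and the CDC25C probe set shown, siCont/GlnF sits near the siBRAF arrays (CDCA3 at 76.3, beside 81.6 on siBRAF/GlnF and 87.9 on siBRAF/Normal), while for UBE2C, NCAPG and NDC80 it sits near siCont/Normal.

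Between the siBRAF arrays of both media genes of any kind differed little, the mitotic genes included. The central 80% of all genes lay between -0.21 and 0.22, with 4 members below that range and 7 above it. Of the 40 genes that passed the filter, 0 were at least 2-fold apart on siBRAF/GlnF against siBRAF/Normal, where 0.0761% of all 13138 genes were lower by 2-fold or more and 0.0457% higher. The median was 0.00, 20 genes lay below 0 and 20 above, and the range ran from -0.47 (CENPM) to 0.47 (CDC25C). SPC25 did not pass the filter, with 14.1 on siBRAF/GlnF and 13.9 on siBRAF/Normal. CCNB1, for example, read 213 on siBRAF/GlnF against 239 on siBRAF/Normal, and BUB1 read 35.3 on siBRAF/GlnF against 25.9 on siBRAF/Normal. The difference in glutamine response, siBRAF minus siCont cells, was at least 2-fold higher for 21 of the 41 and lower for 0, where 7.55% of all 13708 genes were higher and 5.7% lower, with a median of 1.07. It was 2.53 for SPC25, 2.49 for CDCA3 and 2.47 for CDC25C. For CENPM it was -0.12, the only member below 0, where 45.7% of all genes lay below 0. It rests on 4 single arrays and was not tested. As genes in general differed little between the siBRAF arrays, this difference in response largely restates the siCont comparison (21 of the 41 lower, median -1.03).

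**Figure D4:**
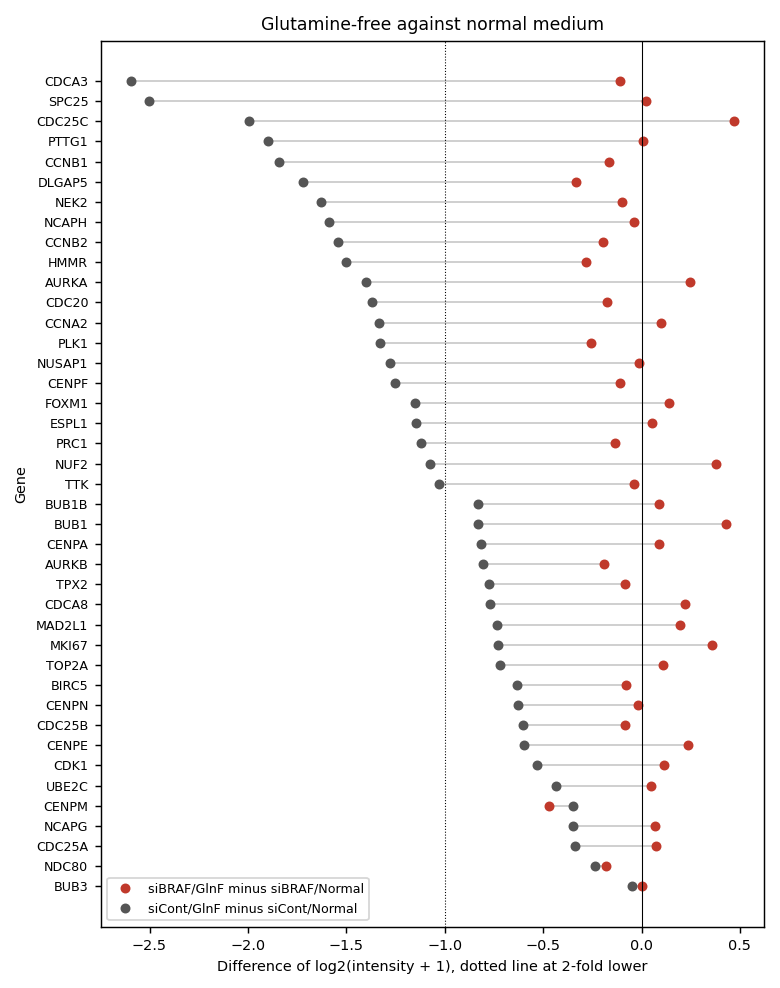
Difference of log2(intensity + 1) between glutamine-free and normal medium in siBRAF cells (red) and siCont cells (grey), a row per gene, sorted by the siCont value; the dotted line marks 2-fold lower. The siCont points run from -2.59 (CDCA3) to -0.05 (BUB3), and the siBRAF points stay between -0.47 and 0.47.

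Set against each other directly, BRAF knockdown in normal medium gave lower levels than glutamine withdrawal in control cells. On siBRAF/Normal 34 of the 41 genes were at least 2-fold lower than on siCont/GlnF and 0 higher, where 11.6% of all 13513 genes were lower by 2-fold or more and 13.0% higher, with a median of -1.54. NCAPG (-2.63), BUB1 (-2.55), NUF2 (-2.47) and NDC80 (-2.43) were furthest below. CDCA3 (0.20), CDC25B (-0.11), SPC25 (-0.39), CDC25C (-0.69), PLK1 (-0.69), PTTG1 (-0.72) and CENPA (-0.86) were within 2-fold. The other CDC25C probe set read 5.55 on siBRAF/Normal against 25.2 on siCont/GlnF, so the place of CDC25C depends on the probe set. These arrays also enter the comparisons above.

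With siATF4 in normal medium, CDC25A was the only mitotic gene 2-fold apart. Of the 41, 1 was at least 2-fold lower on siATF4/Normal than on siCont/Normal and 0 higher, where 0.387% of all 13170 genes were lower and 0.471% higher, and the median was 0.00. CDC25A, the phosphatase that activates CDK2 as well as CDK1 and acts from G1 onward, read 77.3 on siATF4/Normal against 164 on siCont/Normal, a difference of -1.07. Its other 2 probe sets were at -1.49 and -0.66, and with a constant of 16 in place of 1 before the logarithm it was within 2-fold, which left 0 members 2-fold lower. The other 40 genes lay between -0.39 (CDCA8) and 0.33 (HMMR).

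After 4 h of vemurafenib CDC25A was again the only one of the 41 that was 2-fold apart. CDC25A read 306 on siCont/VEM against 687 on siCont/DMSO, a difference of -1.16. Of its other probe sets 1 was at -0.93 and the other read 112 on siCont/VEM against 225 on siCont/DMSO. No other member was 2-fold lower (1 of 41) and 0 were higher, where 1.92% of all 13160 genes were lower and 0.859% higher. The median was 0.13, against 0.02 for all genes. Of the 41, 32 lay above 0 and 9 below it, where 45.1% of all genes lay below 0. Only 6 of the 41 were above the 90th percentile of all genes (0.33). The highest were NDC80 (0.58), HMMR (0.55), CDC25C (0.53) and NEK2 (0.53). The actin 3' minus 5' gap was -0.07 on siCont/VEM against -0.18 on siCont/DMSO, and its part was not tested. For CCNB1 the vemurafenib difference was -0.01, beside -2.86 with siBRAF in normal medium, values from settings that differ in time and array set.

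In vemurafenib, ATF4 knockdown went with slightly lower levels of nearly all mitotic genes. On siATF4/VEM 40 of the 41 lay below siCont/VEM, all but CDC25B (0.06), against 43.5% of all 13173 genes below 0. At least 2-fold lower were 0 of the 41 and higher 0, where 0.729% of all genes were lower and 0.205% higher. The actin gap was -0.00 on siATF4/VEM against -0.07 on siCont/VEM, and its part was not tested. The median was -0.42, against 0.03 for all genes, and 37 of the 41 lay below the 10th percentile of all genes (-0.27). TPX2 read 867 on siATF4/VEM against 1576 on siCont/VEM and 1401 on siCont/DMSO, and CCNA2 read 713 on siATF4/VEM against 1195 on siCont/VEM and 1090 on siCont/DMSO. Both siCont arrays were above siATF4/VEM for TPX2 and CCNA2, with differences of -0.86 and -0.74 against siCont/VEM. HMMR (1452 on siATF4/VEM against 1166 on siCont/DMSO), NEK2 (861 against 780), NDC80 (444 against 432), CDC25C (131 against 120) and CDC25B (1141 against 1009) were higher on siATF4/VEM than on siCont/DMSO. The siATF4 and vemurafenib comparisons share the siCont/VEM array. CDCA3 (-0.67), NCAPH (-0.64) and BUB1B (-0.63) came next. In normal medium, between 2 other arrays, siATF4 differences were -0.11 (TPX2), -0.12 (CCNA2), 0.02 (CDCA3), 0.00 (NCAPH) and -0.09 (BUB1B), and how the siATF4 response differs between the settings was not tested.

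**Figure D5:**
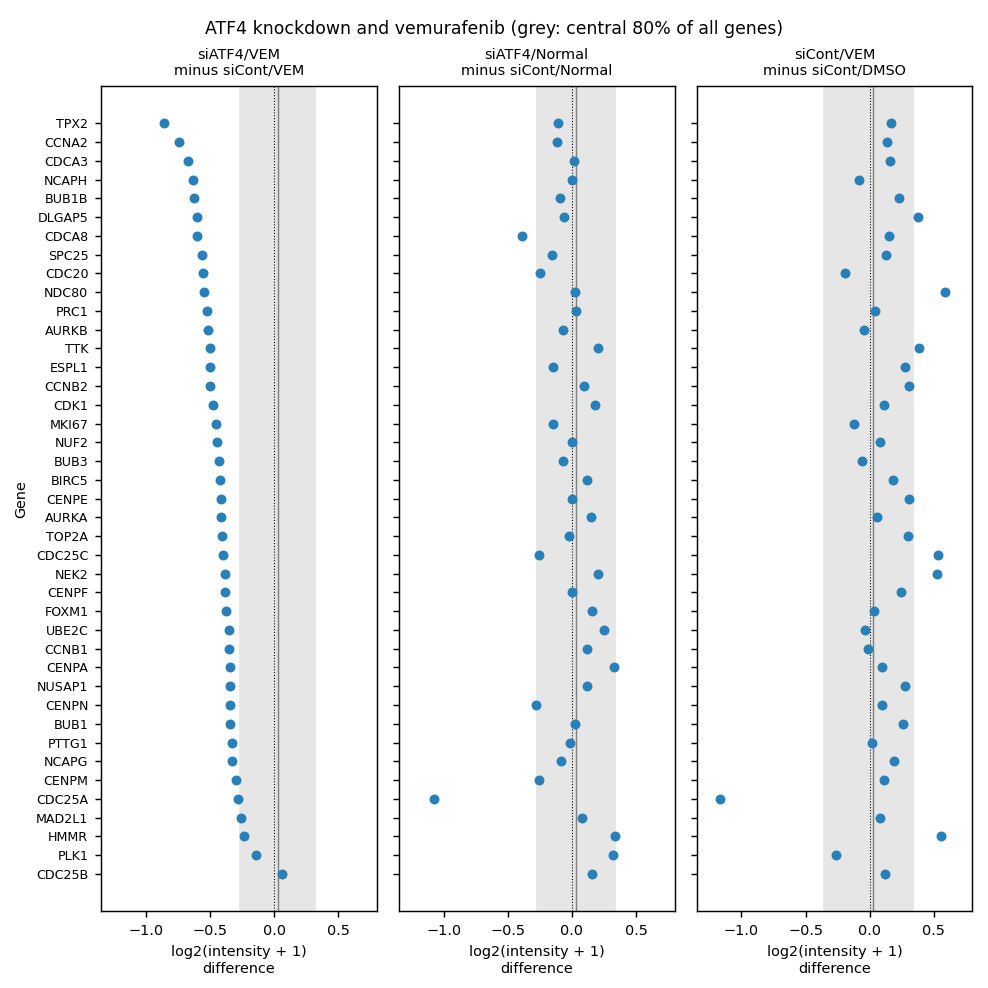
Difference of log2(intensity + 1) for the 41 genes with siATF4 in vemurafenib (left), with siATF4 in normal medium (middle) and with vemurafenib in siCont cells (right); the grey band holds the central 80% of all genes that passed the filter and its line their median. On the left 37 of the 41 points lie below the band, and CDC25A stands apart in the other panels at -1.07 and -1.16.

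In lists of other genes of the pathway, the counts on siBRAF/Normal against siCont/Normal are read beside 7.61% of all genes lower and 7.16% higher. Of 29 other kinetochore and centromere genes, 21 were at least 2-fold lower on siBRAF/Normal and 0 higher (median -1.68), among them the scaffold KNL1 (34.7 on siBRAF/Normal against 284 on siCont/Normal) and SKA1 (-2.83 in normal and -2.84 in glutamine-free medium), while CENPT was at 0.38 and 0.33. Of 16 cohesin and further condensin genes 7 were lower and 0 higher, with CDCA5, sororin, at -2.36 and -2.19, and STAG2 at -0.14 and -0.21. Of 16 APC/C genes 2 were lower and 0 higher: the inhibitor FBXO5 (-1.86 and -1.37) and the enzyme UBE2S (-1.62 and -1.41), while the list as a whole was not lower, with 9 genes below 0, 7 above and a median of -0.06. Of 6 other checkpoint genes 3 were lower, SGO2 (-2.41 and -0.83), SGO1 (-2.09 and -0.59) and TRIP13 (-1.94 and -1.65). Of 9 cytokinesis genes 4 were lower, CEP55 (-2.74 and -2.21), ANLN (-2.67 and -1.69), ECT2 (-2.22 and -2.21) and RACGAP1 (-1.97 and -1.10). The list median was -0.06, with 5 genes below 0 and 4 above, and SEPTIN7 was at 0.11 and 0.65. Of the 11 DREAM, MuvB and B-MYB genes that passed, 3 were lower, MYBL2, which encodes B-MYB, lowest at -1.68, and RBL2, which encodes p130, was at 0.67 and 0.78.

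DNA replication genes were set beside the mitotic genes. On siBRAF/Normal against siCont/Normal 40 of the 41 mitotic genes were at least 2-fold lower (median -2.69), beside 26 of 28 replication genes (median -2.10) and 7.61% of all genes. On siBRAF/GlnF against siCont/GlnF 33 of the 41 were lower (median -1.64), beside 10 of the 28, with 1 replication gene higher (median -0.73), and 10.8% of all genes lower and 12.8% higher. On siCont/GlnF against siCont/Normal 21 of the 41 were lower (median -1.03), beside 16 of the 28 (median -1.10) and 7.22% of all genes. These counts describe the same arrays, and the difference between the lists was not tested.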

How the data were processed

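RNA of A375 cells was measured on 8 Affymetrix arrays from 5 ug of total RNA each. The deposited values are intensities that the authors made with RMA, per the submitters' processing notes, on a linear scale and with no version stated. Each array has 54675 probe sets, including 62 controls. The platform annotation pairs 41091 with 1 symbol, 1801 with several and 11721 with none, which names 19775 genes. No further normalization was applied, and log2(intensity + 1) was taken, which understates changes of low genes. A gene entered a comparison if its higher value reached the 50th percentile of that array. The 13 pairs of arrays within a set differed by 0.011 to 0.051 in sorted log2 values, and the 15 across sets by 0.95 to 0.975. The number of arrays limits the precision. The additive model was fitted with limma 3.58.1 in R 4.3.3, with an intensity trend, terms for siBRAF, siATF4, glutamine-free medium, drug set and vemurafenib, and Benjamini-Hochberg adjustment. The fit and the fold counts were run on simulated data with known changes, as a check of the code only. The data simulated for the fit were strictly additive, which many members here are not, so the calls themselves were not checked. Named in full were, in each of 8 role groups, the members with the lowest and highest mean siBRAF difference, members 2-fold apart with siATF4 or vemurafenib, and the 3 most and 3 least negative in glutamine-free medium. Members and lists were chosen with earlier results of these data known. Alternatives were a constant of 16, a 75th percentile filter or none, the mean of all probe sets, probe sets without the suffixes _s_at, _x_at or _a_at, quantile normalization, median centring, no intensity trend and each array left out.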

Additional observations from a re-analysis of the deposited data

Results flagged for a closer look

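For 7 genes the response to glutamine-free medium pointed in opposite directions in siBRAF and siCont cells and was at least 2-fold in siCont cells. The share of all genes with this pattern was not computed. In siBRAF cells 20 of the 40 members that passed lay above 0, and 45.7% of all 13138 genes lay below 0. Opposite signs are thus common, and the count of 7 is no trait of these genes. The difference in response, siBRAF minus siCont cells, was 2.47 for CDC25C, 1.91 for PTTG1, 1.65 for AURKA, 1.45 for NUF2, 1.43 for CCNA2, 1.29 for FOXM1 and 1.20 for ESPL1. In siBRAF cells alone these genes were at 0.47 (CDC25C), 0.01 (PTTG1), 0.25 (AURKA), 0.38 (NUF2), 0.10 (CCNA2), 0.14 (FOXM1) and 0.05 (ESPL1), so the opposite direction rests on small differences. CDC25C read 12.9 on siBRAF/Normal, below that array's median of 15.5, so its 0.47 and its direction there depend on background. On another CDC25C probe set siCont cells were at -0.87, within 2-fold, and the difference in response was 1.06. The other ESPL1 probe set was at -0.09 in siBRAF cells and -1.18 in siCont cells, the same direction. For these genes the flag depends on the probe set. With 1 array per condition the difference was not tested.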

How the results depend on the processing

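No paired analysis was possible because each group has 1 array. Among counts and medians over the 41 genes, 200 of 205 values under the alternatives stayed within 1.5 times the reported value, and no difference of 2-fold or more changed its direction (smaller ones were not checked for sign). Many of the counts were 0 and were taken as unchanged where they stayed 0, which raises that share. The 1 gene 2-fold lower on siATF4/Normal, CDC25A, became 0 with a constant of 16. Genes called with siBRAF in the additive model ranged from 18 to 41 when 1 array was left out, and the number of all genes that fell changed widely too. The 18 and 19 called without siCont/Normal, siATF4/Normal, siCont/VEM or siATF4/VEM were among the values that moved. Of 432 values of single genes 11 moved by more than 1.5 times on the fold scale, and again no difference of 2-fold or more changed direction. Without probe sets ending _s_at, _x_at or _a_at only 30 of the 41 genes were left, and BUB3 was at -0.06 with siBRAF in normal and -0.12 in glutamine-free medium. With the mean of all probe sets, which adds dim ones, BUB1 was at -1.45 and -1.01, AURKB at -1.58 and -1.04, and CDC25C at -1.92 in normal medium and -1.06 for glutamine-free medium in siCont cells. With a constant of 16, SPC25 was at -2.07 and CDC25C at -1.85 with siBRAF in normal medium, and SPC25 at -1.86 for glutamine-free medium.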

Other observations

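In a mixed list of CDK1 brakes, PP2A genes and other kinases outside the 41 genes, some genes also differed. PLK4, the kinase that starts centriole duplication, was at -3.16 with siBRAF in normal and -1.81 in glutamine-free medium, and the checkpoint kinase CHEK1 at -1.98 and -1.62. PPP2R2A, a B55 subunit of the phosphatase PP2A that opposes CDK1, was at 0.62 in normal and -0.25 in glutamine-free medium. With siBRAF in normal medium 5 of the 13 listed genes were lower by 2-fold or more and 0 higher (median -0.51), beside 7.61% of all genes lower and 7.16% higher. With siATF4 in vemurafenib 26 of the 29 other kinetochore and centromere genes lay below 0 (median -0.20), as did 26 of 28 replication genes (median -0.39), beside 43.5% of all genes. The replication gene CDC6 was lowest among these at -1.09.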
